A study of Mus musculus with 4 samples.

Results

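The regions described are the peaks of SOX3 binding common to replicate mouse testes that lay within 10000 bp of a transcription start and whose nearest gene did not carry a name of the Hist1h, Hist2h, Hist3h or Hist4h series. They were 247 of the 778 common peaks in the deposited table and had 212 nearest genes. Of the other common peaks, 492 lay farther than 10000 bp from a start (distal peaks below) and 39 carried a name of the histone series. The name rule removes the clustered, replication-dependent histone genes only. H3f3b, H2afx and H1fx, which encode replacement and linker histones, stayed among the 247, so the regions are free of histone genes by name prefix and not by function.

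SOX3 was profiled by chromatin immunoprecipitation and sequencing (ChIP-seq) in testis of 129/SvJ mice at postnatal day 7. The 3 ChIP samples, replicates 1 to 3, came from different testes and were precipitated with a goat antibody raised against human SOX3, and 1 input sample without antibody served as the background of all 3. The labels describe the breeding of a Sox3 null line onto this strain but give neither a genotype for the testes used nor the number of animals behind them, so the replicates measure a spread that may lie within an animal. Values of the input were not analysed here. Replicate 1 had 2912 peaks, replicate 2 had 2598 and replicate 3 had 2734. Whole testis was used, so a peak may come from any of its cell types, and a peak list holds no expression against which the tissue could be checked. Each peak carries the authors' own score, whose scale is not stated and whose lowest value was 40 in each list. Scores are compared within a list, and the depth of each library is unknown.

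SOX3 belongs to the SOXB1 group of transcription factors, which bend DNA through an HMG box and recognise short sites with the core ACAAT or ACAAAG on either strand. Factors of this group often act beside a partner bound to a neighbouring site, and POU factors, which bind the octamer ATGCAAAT, are the best known of these partners. In the testis SOX3 is known as a factor of spermatogonia, the mitotic germ cells from which sperm develop. At postnatal day 7 the tubules hold spermatogonia together with Sertoli cells, the somatic cells that support them.

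Promoter sequence is shown first for 4 genes that had a peak in all 3 lists covering the DNA just before the start. Each run holds the 150 bases upstream of the start, 5′ to 3′ along the gene, from RefSeq assembly GRCm38.p6. Capitals mark the SOX cores ACAAT and ACAAAG, the CCAAT box, the ETS core CCGGAAG and the octamer ATGCAAAT, or the reverse complement of each. The peaks are on mm9, so they were placed on these runs by their distance from the annotated start. Nrarp is shown because it had the highest-ranked promoter peak and a SOX core beside an octamer. Srsf7 has a SOX core without an octamer, and Kansl3 and Smarca5 held none of the 5 motifs.
Nrarp: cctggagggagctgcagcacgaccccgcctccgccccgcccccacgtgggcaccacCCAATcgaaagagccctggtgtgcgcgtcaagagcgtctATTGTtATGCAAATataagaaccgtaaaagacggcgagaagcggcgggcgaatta
Srsf7: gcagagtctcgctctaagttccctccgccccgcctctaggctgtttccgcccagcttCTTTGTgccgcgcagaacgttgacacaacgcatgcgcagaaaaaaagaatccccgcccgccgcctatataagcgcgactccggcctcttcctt
Kansl3: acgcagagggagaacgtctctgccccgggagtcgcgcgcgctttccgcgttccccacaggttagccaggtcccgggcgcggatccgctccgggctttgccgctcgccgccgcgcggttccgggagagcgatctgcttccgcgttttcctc
Smarca5: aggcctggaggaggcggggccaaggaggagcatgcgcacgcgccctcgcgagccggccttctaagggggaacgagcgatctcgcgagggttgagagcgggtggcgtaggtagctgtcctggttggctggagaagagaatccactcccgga

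In the Nrarp run, the reverse core ATTGT begins 55 bases before the start, 1 base separates it from the octamer at 49 bases, and a CCAAT box lies at 94 bases. The order ATTGT, 1 base, ATGCAAAT was found in 6 of 32851 promoter windows of the table (0.0183%), which belong to 5 genes. Among the genes with a near peak within 1000 bp of the start, Nrarp was the 1 gene with this order. The order and its spacing were read from the Nrarp run, so the match of Nrarp was fixed in advance. The counts are a description, and no test was made. The Srsf7 run has CTTTGT, the reverse of ACAAAG, at 93 bases before the start.

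The octamer was looked for after the Nrarp sequence had been seen. It lay in the windows of 6 of 65 member genes (9.23%, 95% exact interval 3.46 to 19.02%) and of 474 of 27025 genes with a window (1.75%). It was in 5 of 30 windows of the Hist1h to Hist4h genes with a peak within 1000 bp (16.7%, 5.64 to 34.7%). Because the motif was chosen from a member, this is a description and no test was made. The 6 matches are shown with the octamer in capitals, on the strand of the gene, in 48 bases each.
Nrarp: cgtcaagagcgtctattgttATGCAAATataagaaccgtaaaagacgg
H3f3b: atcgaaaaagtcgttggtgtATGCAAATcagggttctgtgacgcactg
Alyref2: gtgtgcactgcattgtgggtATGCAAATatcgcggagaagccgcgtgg
Kansl1l: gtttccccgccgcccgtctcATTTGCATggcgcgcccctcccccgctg
Gadd45g: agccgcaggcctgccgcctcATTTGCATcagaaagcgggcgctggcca
2900060B14Rik: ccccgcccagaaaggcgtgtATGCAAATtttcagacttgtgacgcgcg

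Only 2 of the 6 octamers, at 49 bases before the Nrarp start and 74 bases before the H3f3b start, lay within the bounds of a common peak. Alyref2 had a peak in all 3 lists that ended farther upstream, and the peak of Kansl1l lay downstream of its start.

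**Figure D1:**
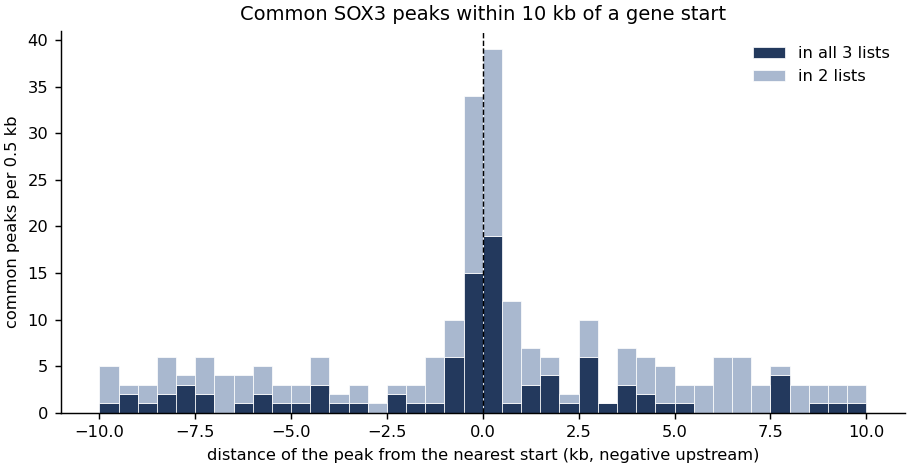
Number of peaks in 0.5 kb bins of distance from the nearest start (kb, negative upstream), with peaks in all 3 lists dark and peaks in 2 lists light, for the common peaks near gene starts without Hist1h to Hist4h names. The peaks were spread over both sides, with 114 upstream and 133 downstream and a median distance of 45 bp.

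The peaks lay on both sides of the start in similar number. Upstream were 114 (46.2%, 39.8 to 52.6%) and downstream 133, with quartiles of distance at −1798.5, 45 and 2694.5 bp. The upstream share was much the same among distal peaks, at 224 of 492 (45.5%, 41.1 to 50.0%), so it was not particular to the near peaks. Within 1000 bp lay 95 peaks, 44 upstream and 51 downstream, and their quartiles were −162, 15 and 184.5 bp. A cut at the same distance on both sides by itself draws this median toward the start. Peaks of the Hist1h to Hist4h genes lay mostly downstream, with quartiles of 105, 186 and 254.5 bp and 5 of 39 upstream (12.8%, 4.30 to 27.4%). By the classes of HOMER, the program that annotated the table, 66 peaks were at promoters, 71 in introns, 70 intergenic, 11 in exons, 7 in 5′ UTR, 3 in 3′ UTR, 11 at transcript ends and 8 in non-coding transcripts. The nearest gene was protein-coding for 214 peaks and a non-coding RNA for 27. In all, 185 of 21900 protein-coding genes (0.845%) were the nearest gene of at least 1 peak.

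Peaks near gene starts recurred in all 3 lists more often than distal ones. Of the 247 peaks, 95 were in all 3 lists (38.5%, 32.4 to 44.8%), against 29.9% of all common peaks and 114 of 492 distal peaks (23.2%, 19.5 to 27.2%). The intervals of the near and distal shares did not overlap. They cover counting error only and treat peaks as independent, although 28 genes had 2 or more of the peaks and 19 peaks shared a replicate peak with another common peak. The 3 lists also share 1 input, so they are not fully independent of each other. The 39 histone-named peaks recurred most often, at 24 (61.5%, 44.6 to 76.6%).

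Recurrence was highest next to the start but did not fall steadily with distance. Within 100 bp of the start, 18 of 34 peaks were in all 3 lists (52.9%, 35.1 to 70.2%). The share was 23 of 61 at 101 to 1000 bp (37.7%, 25.6 to 51.04%), 31 of 71 at 1001 to 5000 bp (43.7%, 31.9 to 55.95%) and 23 of 81 at 5001 to 10000 bp (28.4%, 18.9 to 39.5%). The intervals of all 4 classes overlapped, and that of the outermost class overlapped the interval of the distal peaks. Overlap does not show that shares are equal, and an order among the classes was not tested. Peaks nearest to non-coding RNA genes recurred in 6 of 27 cases (22.2%, 8.62 to 42.3%). Those nearest to protein-coding genes did so in 87 of 214 (40.7%, 34.0 to 47.6%), and the intervals overlapped.

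**Figure D2:**
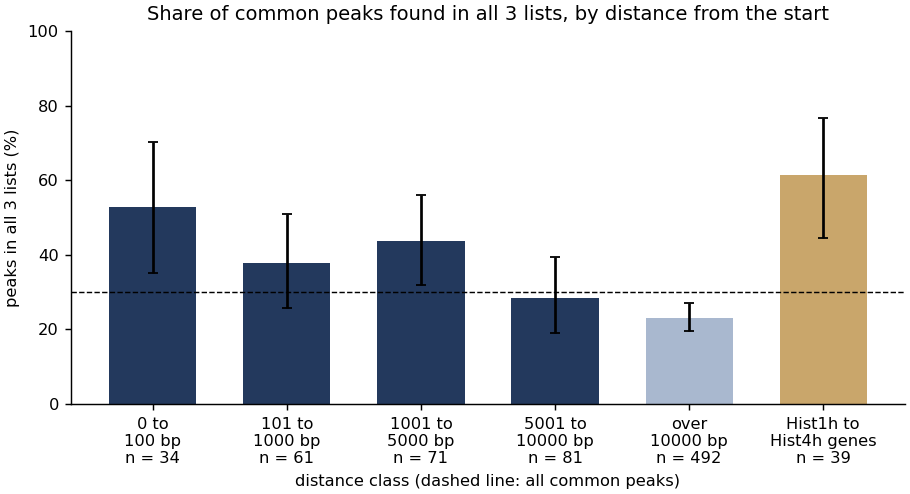
Share of common peaks present in all 3 replicate lists (%) by distance from the nearest start, with exact 95% intervals as bars and the share of all common peaks as a dashed line. The share was 52.9% within 100 bp, 23.2% beyond 10000 bp and 61.5% at the histone-named genes.

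Annotated repeats held fewer of the near peaks than of the distal ones, and the kind of repeat moved with recurrence. Repeats held 53 of the 247 peaks (21.5%, 16.5 to 27.1%) against 50.8% of distal peaks (46.3 to 55.3%). LINE elements, which copy themselves through RNA, held 3.24% against 17.9%, and LTR elements, relatives of retroviruses, 6.07% against 12.0%. None of the 15 near peaks in LTR elements was in all 3 lists, which allows a share of up to 21.8%, and none of the 8 in LINE elements was, which allows up to 36.9%. The best score of any list had a median of 55.3 in LTR elements and 50.3 in LINE elements, against 96.3 for peaks outside repeats.

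Peaks in repeats derived from small nuclear RNA (snRNA) genes recurred often. These repeats are copies of U RNAs, most of which work in the spliceosome, and held 11 of the near peaks (4.45%) and 25 of the distal ones (5.08%). Of the 11 near peaks, 10 were in all 3 lists (90.9%, 58.7 to 99.8%). The median of their best score was 134. Reads that match many copies are hard to place, and how such reads were treated is not stated in the labels or file headers. Outside repeats, 82 of 194 near peaks (42.3%, 35.2 to 49.6%) and 73 of 242 distal peaks (30.2%, 24.5 to 36.4%) were in all 3 lists. There the intervals overlapped. In repeats of any class, 13 of 53 near peaks (24.5%, 13.8 to 38.3%) and 41 of 250 distal peaks (16.4%, 12.0 to 21.6%) were. These intervals overlapped too. Recurrence of the distal peaks was not split by repeat class, so the class shares are not shown to be particular to the near peaks.

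**Figure D3:**
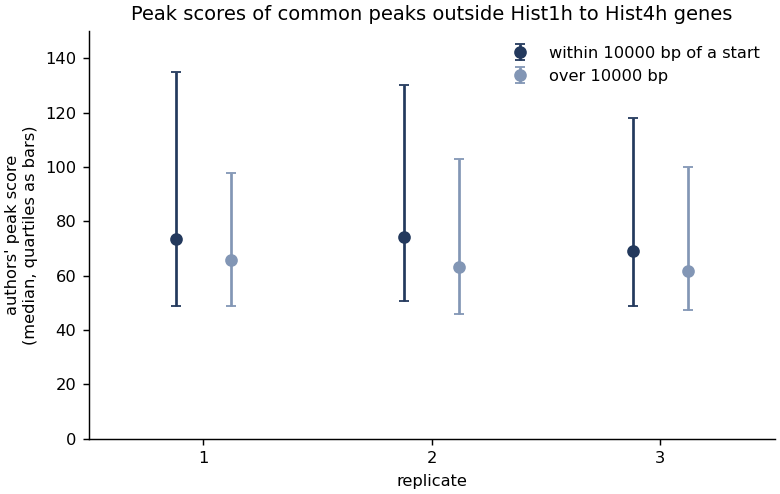
Median score of the near and distal common peaks in each replicate list, in the authors' score units on a linear axis, with quartiles as bars. The near peaks had medians of 73.7, 74.2 and 69.2, and the distal peaks 65.7, 63.4 and 61.8.

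Scores of the near peaks were higher than those of the distal peaks by a small amount in each list. The lists of replicates 1, 2 and 3 contained 199, 188 and 202 of the near peaks, with medians of 73.7, 74.2 and 69.2, against 65.7, 63.4 and 61.8 for distal peaks. The log2 ratio of the medians was 0.17, 0.23 and 0.16, a mean of 0.186 ± 0.036 (SD, n = 3), in the same direction in 3 of 3 lists (exact two-sided permutation p = 0.25, the smallest that 3 lists allow). Outside annotated repeats the mean was 0.0137 and the difference was negative in replicate 3. It was 0.0567 among peaks with a score of 60 or more, again with a negative value in replicate 3, 0.0638 with a limit of 1000 bp and 0.373 without replicate 3. Scores of 100 or more were reached by 76 near peaks of replicate 1 (38.2%), 66 of replicate 2 (35.1%) and 64 of replicate 3 (31.7%), against 29.7, 28.8 and 28.7% of all common peaks in those lists.

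Median scores were lowest in the distance class nearest the start, yet above those of the distal peaks in each list. Peaks within 100 bp had medians of 67.4, 69.0 and 62.2 in replicates 1, 2 and 3, those at 101 to 1000 bp had 72.6, 70.9 and 67.3, those at 1001 to 5000 bp 78.5, 85.8 and 74.4, and those at 5001 to 10000 bp 86.2, 73.4 and 67.6. The share within 100 bp with a score of 100 or more was 29.03, 27.6 and 34.6%, the lowest of the 4 classes in replicates 1 and 2 and the highest in replicate 3, on 26 to 31 peaks. Over the 3 lists, 111 of the 247 peaks reached 100 in at least 1 list and 73 of these were in all 3, while 57 stayed below 60 wherever they were found.

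The peak with the best mean rank lay in intron 4 of 4930415F15Rik, 8798 bp downstream of its start (chr11:11397629-11398506, mm9), with scores of 1172, 1007 and 970.0 in replicates 1, 2 and 3. It led the near peaks in each list. Nrarp, which encodes a feedback inhibitor of Notch signalling, had the next best peak at its promoter, 31 bp upstream (chr2:25035801-25036694), with 689, 757 and 785. Of the 20 best-ranked peaks, Tsnax alone had a smaller ratio of highest to lowest score. The third was 858 bp upstream of Eapp, the gene of a phosphoprotein that binds E2F factors (chr12:55797360-55798061), with 692, 526 and 583.

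Several of the strongest near peaks were at genes or copies of non-coding RNAs. Rnu11, the U11 RNA of the minor spliceosome, had a peak 7 bp upstream (chr4:131825734-131826483) with 539, 558 and 397. Tex14, needed for the bridges that join germ cells, had a peak in a U1 copy 4597 bp upstream with 898, 342 and 404, and another 683 bp upstream with 725, 344 and 423. In both, replicate 1 was far above the other replicates. BC107364 had a peak in a U1 copy 7883 bp upstream with 559, 411 and 449, and one in intron 1 with 582, 411 and 458. The BC107364 peaks, on separate stretches of chromosome 3, had equal scores in replicate 2. Arl4d, which encodes a small GTPase of the ARF family, had a U2 copy 7228 bp upstream with 266, 390.2 and 329.8.

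The other snRNA copies had lower scores but were found in each testis, apart from 1. The U1 copy 7961 bp upstream of Terc, the RNA of telomerase, scored 222, 178 and 168. The U1 copy near Fcgr4 scored 219, 109 and 144. The copies near Snf8 (U3), Kif2c (U5), Cabp2 (U3), LOC666331 (U2) and the first of 2 near Sirt4 (U4) lay between 90.5 and 134 in all lists. The second U4 copy near Sirt4 was the exception, with 50.8 and 77.4 in replicates 1 and 2 and no peak in replicate 3.

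The widest near peak lay over Rn45s, the precursor of ribosomal RNA, a high-copy gene. It spanned 5989 bp, and its scores of 1014, 205 and 579 differed most between testes among the 20 best-ranked. The peak 425 bp upstream of 4930404N11Rik spanned 1999 bp and scored 628, 256 and 476. The median width of all near peaks was 293 bp (quartiles 204 and 469).

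Protein-coding genes outside annotated snRNA copies made up most of the rest of the 20. Slc39a10, a zinc importer, had a peak 129 bp upstream (629, 285 and 384), and Ralgapa2, which encodes a subunit of a GTPase activator for Ral, one in intron 1 (499.99, 353 and 525). Jund, a subunit of the AP-1 transcription factor, had a peak 1120 bp downstream in its 5′ UTR exon with 294, 349 and 268. Tsnax, whose protein pairs with the nucleic acid binding protein translin, had a peak 8139 bp upstream with 258, 259.5 and 278, the closest agreement between testes among the 20. The remaining peaks, at Gpr137, Trim17, Rdm1, Sphk2 and Cox20, had scores between 157 and 341.

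**Figure D4:**
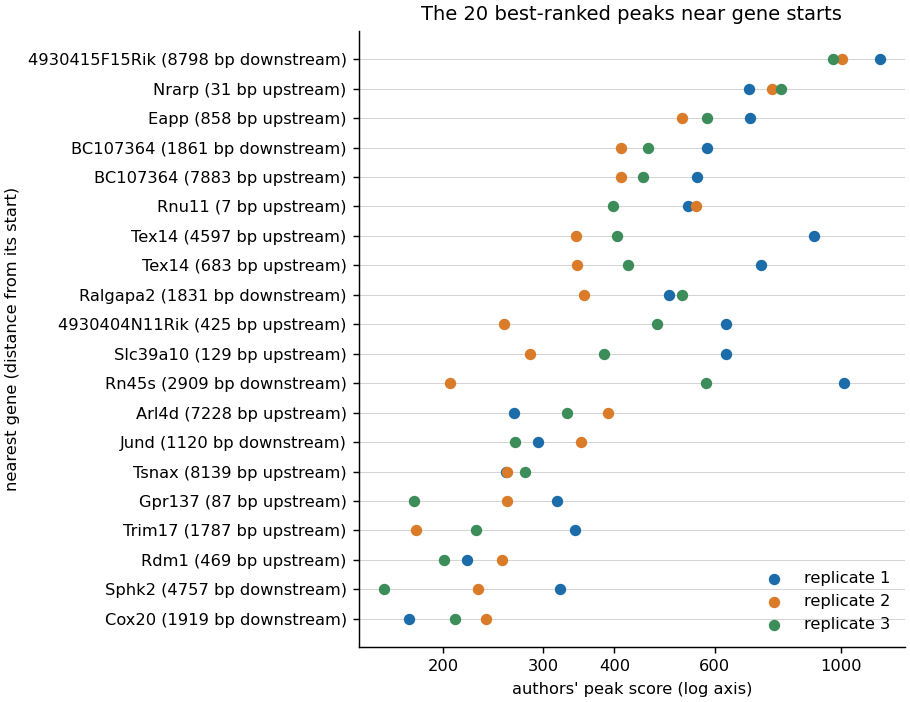
Scores of the 20 near peaks with the best mean rank, 1 row per peak with its nearest gene, on a log axis in the authors' score units with 1 mark per replicate. All 20 peaks were in all 3 lists, and the marks of Rn45s, between 205 and 1014, lie farthest apart.

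Among the peaks in all 3 lists, the 10 closest to a start were at Rnu11, Polr2a, Nrarp, Hmgb1, H2afx, Stmn1, Gm3448, Eif4g2, Gm3417 and Srsf7, at 7 to 61 bp. Polr2a, the largest subunit of RNA polymerase II, had a peak 26 bp downstream with 70.1, 75.8 and 52.4. Eif4g2, a translation initiation factor, had one 50 bp upstream with 207, 106 and 69.8. Stmn1, which destabilises microtubules, had scores of 41.1, 57.9 and 101. Scores of these 10 thus ran from near 40 up to the 785 of Nrarp in replicate 3. Gm3448 and Gm3417 had equal scores in each list (40.8, 69.0 and 52.96) from separate peaks, and the 150 bases upstream of their starts are identical, so reads from that stretch cannot be told apart.

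The peaks were set against 27 lists of genes, chosen with results of these data known, so their counts are no independent support. Of the 751 genes in the lists, 29 (3.86%) had a near peak, spread over 14 lists, against 0.845% of protein-coding genes. The lists with the most were chromatin regulators, with 8 of 103 genes, and SR and hnRNP splicing proteins, with 5 of 54. Among replacement and linker histones 3 of 12 genes had one. No gene of 13 lists had one, among them the lists for SOX factors (20 genes), undifferentiated spermatogonia (24), differentiating spermatogonia (13), Sertoli cells (20) and Leydig cells (11).

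Chromatin regulator genes had peaks of widely differing strength. Phf10, a subunit of a SWI/SNF remodelling complex, had one 921 bp upstream with 143, 208 and 160.1. Setd2, which trimethylates lysine 36 of histone H3, had one 6083 bp upstream, in an annotated repeat of the SINE class, with 211, 169 and 117. Hmgb1, an abundant DNA-bending protein, had one 33 bp upstream with 63.2, 238 and 186, in which replicate 1 was far lower. Brd2, a reader of acetylated histones, had 49.1, 152 and 57.5, and Smarca5, the ATPase of ISWI complexes, 126, 65.4 and 44.1. These 5 genes had a peak in all 3 lists. Kdm5b, Chd7 and Kmt2a encode a histone demethylase, a remodeller and a histone methyltransferase. These genes and Smarca5 lie outside the 4 best-ranked of the list. Chd7 (56.9 and 47.9), Kmt2a (64.4 and 42.0) and the best-ranked peak of Kdm5b (121 and 159) were in replicates 1 and 3 and not in replicate 2. A neighbouring Kdm5b peak, 557 bp downstream of the start, had 60.3 in replicate 2 and none in replicate 1, so the gene had a peak in each list. The 3 Kdm5b peaks lay under 1 peak of replicate 3.

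Splicing protein genes had their peaks within 1000 bp of the start. Srsf7, a serine and arginine rich splicing factor, had a peak 61 bp upstream with 112, 116 and 255. Hnrnpk, an RNA-binding protein, had 161, 53.6 and 91.4 at 433 bp downstream, and Hnrnpa2b1 had 149, 44.6 and 41.3 at 139 bp upstream. Both of these peaks were highest in replicate 1 and lower in the other testes. A second peak of each gene was not. That of Hnrnpk had 43.8 and 74.7 in replicates 1 and 3, and that of Hnrnpa2b1 85.9 and 47.6 in replicates 2 and 3. Hnrnpu had 163 and 86.2 in replicates 1 and 3 and none in replicate 2, and Hnrnph1 71.0 and 76.6 in replicates 2 and 3 and none in replicate 1.

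H3f3b, which encodes the replacement histone H3.3, had a peak 99 bp downstream of its start with 137, 133 and 249.6. H2afx, the variant phosphorylated at DNA breaks, had one 37 bp downstream with 83.8, 80.3 and 110, and H1fx, a linker histone, one 88 bp upstream with 56.1, 90.1 and 48.9. All 3 genes were in all 3 lists and lay within 100 bp of the start. Their peaks were weaker than that of Nrarp in each list.

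**Figure D5:**
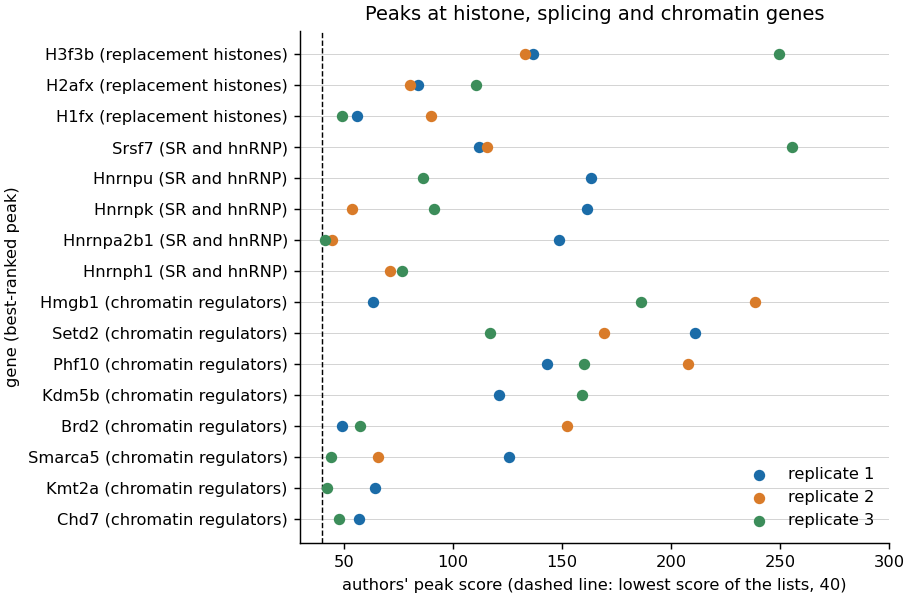
Scores of the near peaks at replacement histone, splicing protein and chromatin regulator genes, 1 row per gene with its best-ranked peak, on a linear axis in the authors' score units with 1 mark per replicate and a dashed line at 40. A missing mark is a list without the peak, as for Hnrnpu in replicate 2 and Kmt2a in replicate 2.

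Of the remaining lists, 2 had peaks at 2 genes and 9 at 1 gene. The former held 44 and 35 genes (4.55 and 5.71% with a peak). The latter held 11 to 68 genes, so 1 gene made 1.47 to 9.09%, against 0.845% of all protein-coding genes. These shares rest on 1 or 2 genes each and were not tested. Esrra, an orphan nuclear receptor, had a peak 601 bp upstream with 101, 197 and 172. Tcf7, a transcription factor of the Wnt pathway, had one 3486 bp upstream with 41.3, 146 and 79.0. Hsp90aa1, a stress-inducible chaperone, had 44.9, 60.5 and 48.2. Gadd45g, a stress response gene, and Ubb, a polyubiquitin gene, were each in 2 lists per peak. Neurog3, a transcription factor of spermatogonia primed to differentiate, had a peak 4156 bp upstream with 99.3 in replicate 1, none in replicate 2 and 44.8 in replicate 3. Zfp36l2, which speeds the decay of AU-rich mRNA, had 111 and 83.0 in replicates 1 and 3, and Sf1, which binds the intron branch point, 45.6 and 52.4 in replicates 1 and 2. Cdc20, an activator of the anaphase-promoting complex, had 112 and 62.1 in replicates 1 and 3.

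Some further genes were picked after their values were seen. Gtf3c6, a subunit of the RNA polymerase III factor TFIIIC, had a peak 940 bp upstream with 188, 179 and 96.2. Kansl3, of the NSL acetyltransferase complex, had 145, 152 and 126 at 100 bp upstream, whereas Kansl2 of the same complex had 47.7 and 40.4 in replicates 1 and 2 only. Alyref2, of the mRNA export adaptor family, had 174, 129 and 148.

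Missing from a list did not always mean weak elsewhere. Of the 247 near peaks, 48 were missing from replicate 1, 59 from replicate 2 and 45 from replicate 3. Of the 492 distal peaks, 105, 139 and 134 were missing from these lists. For 38 of the 152 near peaks missing from a list, the score was 100 or more in another. Neighbouring peaks are counted apart in the 38, such as the 3 of Kdm5b under 1 peak of replicate 3 with 159. The matching count for distal peaks was not made. Cep152, a centrosome gene, scored 349 and 201 in replicates 1 and 2 and had no peak in replicate 3. Sfxn2, a mitochondrial carrier, scored 105 and 236 in replicates 1 and 3 with none in replicate 2, and Galp, a neuropeptide gene, 129 and 261 in replicates 1 and 2 with none in replicate 3.

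The genes with 2 or more near peaks numbered 28 and held 63 peaks. Mir101c had the most, with 5, none of them in all 3 lists. All 4 of the near peaks in satellite repeats were among these, with widths of 632 to 2811 bp. Cox20, a gene for assembly of cytochrome c oxidase, had 4, of which the strongest scored 174, 238 and 210.1. Taf1c, a subunit of the RNA polymerase I factor SL1, had 3, at 2670 to 4735 bp downstream.

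Promoter windows of 300 bases (250 before the start and 50 after) were found for 65 of the 83 genes with a peak within 1000 bp. A peak within 1000 bp can lie partly or wholly outside its window, as those of Eapp and Gtf3c6 did. The sequences under the peaks were not read, so the shares describe promoters of the genes and not the bound DNA. Motifs were searched as exact letters on both strands and are a description, not sites. The SOX core ACAAT was in 33.8% of the windows (22.6 to 46.6%) and in 31.6% of all 27025 promoters, ACAATG in 13.8 and 12.8%, ACAAAG in 21.5 and 18.7% and AACAAT in 15.4 and 10.9%. The ACAAT interval included the value of all promoters. GGGCGG, the GC box, was in 69.2% (56.6 to 80.1%) against 35.9%, CCGGAAG, a core of ETS factors, in 26.2% (16.03 to 38.5%) against 9.12%, and CACGTG, the E-box of MYC and USF, in 15.4% (7.63 to 26.5%) against 7.24%. CCAAT was in 46.2% and 37.9%, TATAAA in 10.8% and 14.2%, and TGACGTCA in 0 of 65 windows against 1.88%. The windows had a median GC content of 62.3% against 52.7% and a median of 25 CpG dinucleotides against 7, and the part of this composition in the motif shares was not tested. Windows of histone-named genes differed, with TATAAA in 63.3% and CCAAT in 76.7%.

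The peaks closest to the distance limit on either side had scores from 40.3 to 165. Just inside it were Mir7086, 9956 bp downstream (139 and 132 in replicates 1 and 2), and 2 peaks of Smchd1, 9857 and 9693 bp upstream, with scores of 40.3 to 47.8. Just outside were Pecam1 at 10023 bp (162, 103 and 165), Pfn4 at 10214 bp (55.9 and 66.1) and B2m at 10319 bp (98.2, 76.8 and 77.8).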

How the data were processed

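Peak lists of 3 SOX3 ChIP samples and 1 annotated table of common peaks were used. The deposited score of each peak is the authors' own value, with no stated scale. The common table's distance to the start, in bp and negative upstream, its site classes and its repeats come from HOMER on mm9, per the file headers, which name a list of peaks found in at least 2 samples. The submitters' processing notes name Bowtie2 2.0.0 and genome build mm9, and the peak names begin with MACS, per the deposited lists. The caller's version and settings, duplicate removal and the treatment of reads with several matches are stated in neither labels nor headers, and all could change peaks in repeats.

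A common peak took the highest score of the replicate peaks it overlapped by at least 1 bp. Shares carry exact Clopper-Pearson 95% intervals. Near and distal scores were compared by an exact sign-flip permutation test of the log2 ratio of medians over the 3 lists. Ranks were averaged over lists, an absent peak taking the last rank. Genes named are the 20 best-ranked peaks, the 10 closest to a start in all 3 lists, list genes (the 4 of best rank where a list has more than 6), genes with several peaks, peaks missing from 1 list with 100 or more in another, and the 3 on either side of the limit; for the longer of these groups examples are given, and Smarca5, Chd7, Kmt2a and the genes said in the text to be picked after their values were seen lie outside the rule. Of the 212 genes, 211 were in the RefSeq table (GRCm38.p6), and promoter motifs were searched in the first window of each gene that had one, for genes with a peak within 1000 bp. No mm9 sequence was used here. The members, lists and motifs were chosen with earlier results of these data known. The octamer, and its order with ATTGT, were chosen after sequences were seen. Overlap and score functions were tested on simulated data. Python 3.11.15, pandas 2.3.3, numpy 2.4.6 and scipy 1.17.1 were used.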

Additional observations from a re-analysis of the deposited data

How the results depend on the processing

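Shares were compared with the exact interval of the reported value, counts with a factor of 1.5 and the score difference by its direction only. By these limits 37 values, 11 of them motif shares, did not move, 13 moved and none reversed. The mean score difference shrank to 0.0137 outside repeats, 0.0567 with scores of 60 or more and 0.0638 with a limit of 1000 bp. Outside repeats and with scores of 60 or more, replicate 3 had a negative difference (−0.0197 and −0.0290). The exact sign-flip permutation p was 0.75 in both of these settings. With a limit of 1000 bp, 95 near peaks remained, 2.11% of them in repeats, and with 5000 bp 10.8% were in repeats. The share in all 3 lists was 29.6% under a 50% reciprocal overlap (186 peaks kept; distal 18.6%) and 51.3% with scores of 60 or more (119 kept; distal 38.7%), and 42.3% without peaks in repeats. Without each replicate in turn, 140 to 154 of the 247 near peaks (56.7 to 62.3%) were in both remaining lists, and 16.4 to 20.1% of those left were in repeats. Of the list genes, 18 had a near peak in all 3 lists. The cause of these moves was not tested, except that a shorter limit or fewer lists leaves fewer peaks by construction. No paired analysis was possible because the input has 1 sample, which was not analysed here. Read depth is unknown, so an absent peak cannot be told apart from one below the caller's limit, and the score difference cannot reach a p under 0.25 with 3 lists or 0.5 with 2.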
